A study of Mus musculus with 6 samples.

Results

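The 10 microRNAs (miRNAs) described here lie inside protein-coding genes and were listed as intronic miRNAs of brain-expressed hosts. They are miR-149, miR-151, miR-186, miR-326, miR-328, miR-330, miR-335, miR-340, miR-342 and miR-488. Their assays were chosen by name, ignoring species prefix and arm, and no measured value entered that rule, which gave 18 of the 750 miRNA assays of a TaqMan OpenArray rodent panel, 11 in pool A and 7 in pool B (the last letter of the assay identifier). The list of names itself was proposed with the strain differences of these assays known, so their strain values are given as a description, the adjusted p-values come from fits over the whole panel, and no test was made of the set. The samples were whole prefrontal cortex of male mice aged 5 months, without drug treatment. The control group was 3 wild-type C57BL/6J mice. The test group was 3 mice labelled BTBR T+ Itpr3tf/J, an inbred strain studied for its autism-like social behaviour, for which the strain background field also reads C57BL/6J. Each assay gave a cycle threshold, which is when the PCR signal crosses a set level, so a lower value stands for more RNA. A threshold of 40 was taken as undetermined, and an assay was called read at a raw threshold from 10 to below 40.

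An intronic miRNA is cut as a hairpin from the transcript of its host gene, and the hairpin is then cut again to a duplex whose arms are named 5p and 3p. Usually an arm is loaded into an Argonaute protein and the other is degraded, and # in an assay name marks the arm held to be less abundant. The seed, bases 2 to 8 of the mature miRNA, does most of the pairing with target mRNAs, and an intronic miRNA can be co-expressed with its host or processed apart from it. In the RefSeq gene table (GRCm38.p6), all 10 miRNAs lay within the span of a protein-coding gene. These were Gpc1, a glypican (miR-149), Ptk2, the focal adhesion kinase (miR-151), Zranb2, a splicing factor (miR-186), Arrb1, a beta-arrestin (miR-326), Elmo3, of a family that acts with Rac activators (miR-328), and Eml2, a microtubule-associated protein (miR-330). The others were Mest, an imprinted gene (miR-335), Rnf130, a ubiquitin ligase (miR-340), Evl, an actin regulator (miR-342), and Astn1, which acts in neuronal migration (miR-488). For the 6 hairpins whose strand and host strand were both in the tables, the strands were the same. The tables give spans without exons, and no host mRNA was measured in these files, so the placement in introns and the expression of the hosts in cortex were not checked.

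Sequences of 8 miRNA arms are shown because the results turn on their assays; they are RefSeq mature sequences, 5′ to 3′, with the seed in capitals. The files give no assay sequences, and for names without an arm mark (miR-149, miR-326, miR-335) or with # the arm is the usual one for that name. The first 4 were read in BTBR only.
mmu-miR-149-5p: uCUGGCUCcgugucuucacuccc
mmu-miR-335-5p: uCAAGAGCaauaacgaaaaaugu
mmu-miR-340-3p: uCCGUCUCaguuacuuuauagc
mmu-miR-342-3p: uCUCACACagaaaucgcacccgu
The other 4 were read in all 6 samples.
mmu-miR-326-3p: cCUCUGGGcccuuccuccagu
mmu-miR-330-5p: uCUCUGGGccugugucuuaggc
mmu-miR-335-3p: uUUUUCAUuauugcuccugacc
mmu-miR-340-5p: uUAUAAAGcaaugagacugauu
The hairpins lie on the plus strand of GRCm38.p6 at chr1:92850378-92850443 (miR-149), chr6:30741299-30741396 (miR-335), chr11:50069702-50069799 (miR-340), chr12:108658620-108658718 (miR-342), chr7:99552269-99552363 (miR-326) and chr7:19181465-19181562 (miR-330). Among these arms only miR-326-3p and miR-330-5p share a seed, CUCUGGG, and no further mature miRNA of the table's 1679 has it. Among the 8 arms shown, GC content ran from 30.4% to 60.9% in the 4 read in BTBR only and from 27.3% to 66.7% in the other 4. A sequence was at hand for 14 assays, with none for miR-151 and miR-328, so GC content was not compared over all assays.

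The samples differed in how many assays gave a reading, 289 to 305 of 750 in C57BL/6J and 347 to 404 in BTBR. The endogenous control RNAs differed in the same direction. Of 80 control spots per sample (5 controls, 16 spots each), 59 to 63 were read in C57BL/6J and 78 to 80 in BTBR. Among the spots that were read, the median thresholds of 4 of the 5 controls overlapped between strains, such as U6 rRNA with 14.2 to 14.5 cycles in C57BL/6J and 13.6 to 14.3 in BTBR. Those of Y1 did not, with 16.6 to 17.4 cycles in C57BL/6J and 15.6 to 16.2 in BTBR. A plant control was read in no spot. BTBR replicate 3 was closer to the other strain than to its own. Over 189 assays its normalized thresholds had a Pearson correlation of 0.945 to 0.966 with the C57BL/6J samples, against 0.938 and 0.918 with BTBR replicates 1 and 2. Of 8 neuronal marker assays (miR-124, miR-128, miR-9, miR-137, miR-138), 5 to 7 were read in C57BL/6J and 6 to 7 in BTBR. Microglia and blood cell markers were read in 2 to 5 of 8 assays in C57BL/6J and 4 to 6 in BTBR, and red blood cell markers in 1 and 2 of 3. A further list (miR-143, miR-145, miR-199a, miR-214, miR-31) had 5 of 11 read in C57BL/6J and 6 to 7 in BTBR. In the same order, oligodendrocyte markers had 3 and 3 to 4 of 4, and endothelial markers 1 to 2 and 2 of 2. Choroid plexus markers had 2 and 2 of 3, and muscle markers 4 to 5 and 5 of 7. The part of cell makeup in the results was not tested, and in whole tissue fewer cells of a type and less RNA per cell cannot be told apart.

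The 18 assays fell into a group of 9 read in all 6 samples and a group of 9 read in some. Of the latter, 4 were read in every BTBR sample and in none of C57BL/6J, hsa-miR-328, hsa-miR-335, hsa-miR-340# and hsa-miR-342-3p. A further 2, hsa-miR-149 and hsa-miR-340, were read in 2 BTBR samples and in none of C57BL/6J, and the last 3 in 1 sample each. The first of these patterns held for 3.73% of the panel (28 of 750), and reading in at least 2 BTBR samples with none in C57BL/6J held for 10.9% (82 of 750), beside 6 of 18 here. The opposite pattern, at least 2 C57BL/6J and no BTBR samples, was found in 1.47% of the panel and 0 of the 18 assays.

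**Figure D1:**
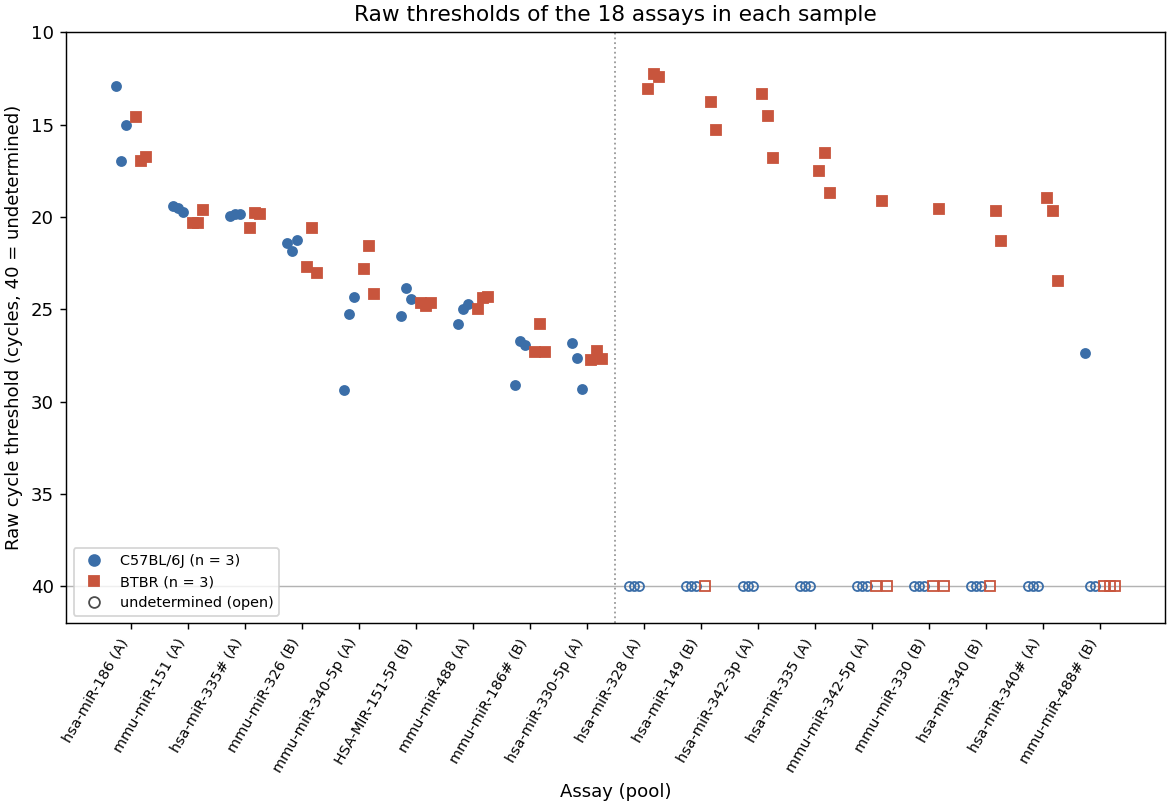
Raw cycle threshold (y axis, cycles, earlier at the top) of each of the 18 assays (x axis, pool in brackets) in 3 C57BL/6J samples (blue circles) and 3 BTBR samples (red squares), with open symbols at 40 for undetermined. The 9 assays left of the dotted line were read in all 6 samples, and to its right nearly all readings are from BTBR, from 12.237 cycles upward.

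The assay hsa-miR-328, whose miRNA is known as a brain-enriched regulator of BACE1, had raw thresholds of 13.046, 12.237 and 12.4 cycles in BTBR replicates 1 to 3 and was undetermined in every C57BL/6J sample. These were among the earliest readings of each BTBR sample, at ranks 7, 2 and 5 of the assays read there. The assay hsa-miR-342-3p stood at 13.355, 14.515 and 16.813 cycles in BTBR, mean 14.9 ± 1.76 (SD, n = 3), and at 40 throughout C57BL/6J. Its miRNA is produced from an Evl intron and is found in brain and in lymphoid cells. Thus both assays gave early readings in 3 of 3 BTBR samples and none in 3 of 3 C57BL/6J samples.

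The assay hsa-miR-335, for the arm named as the major product of the Mest hairpin, read 17.534, 16.519 and 18.727 cycles in BTBR and 40 in each C57BL/6J sample. The assay hsa-miR-340# read 18.985, 19.684 and 23.467 cycles in BTBR, with replicate 3 the latest by over 3 cycles, and 40 in each C57BL/6J sample. For hsa-miR-149, from the glypican gene Gpc1, BTBR replicates 2 and 3 read 13.773 and 15.308 cycles, and BTBR replicate 1 was undetermined like the C57BL/6J samples. Likewise hsa-miR-340, in the other pool from hsa-miR-340#, read 19.682 and 21.319 cycles in BTBR replicates 2 and 3 alone. An undetermined assay has no level, so no fold is given for these 6.

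Readings in 1 sample came from mmu-miR-330 (19.58 cycles) and mmu-miR-342-5p (19.109 cycles), both in BTBR replicate 2, and from mmu-miR-488# (27.385 cycles) in C57BL/6J replicate 1. BTBR replicate 2 also had the most assays read nowhere else over the panel, 19 against 3 to 8 in the other samples. Without it, miR-149 and hsa-miR-340 would each rest on a single reading, that of BTBR replicate 3.

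**Figure D2:**
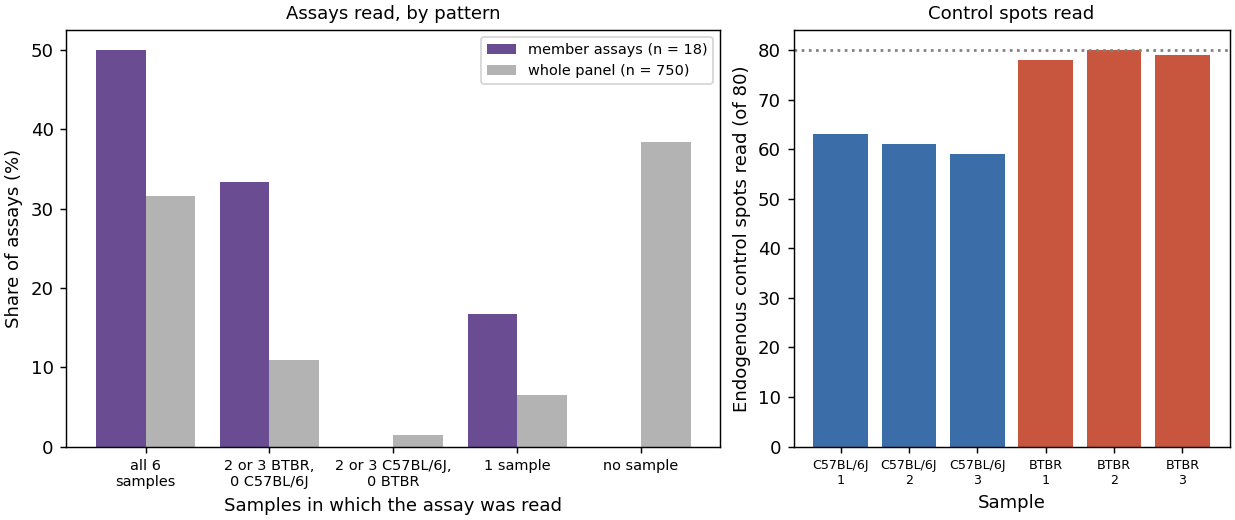
Left, share of assays (%) by the samples in which they were read, for the 18 assays (purple) and the whole panel of 750 (grey). Right, endogenous control spots read per sample, of 80 (dotted line). The share read in 2 or 3 BTBR and 0 C57BL/6J samples was 33.3% here and 10.9% over the panel, and C57BL/6J samples had 59 to 63 control spots read against 78 to 80 in BTBR.

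Readings in every BTBR and no C57BL/6J sample were not spread evenly over the pools. All 4 assays here read in every BTBR and no C57BL/6J sample were in pool A, as were 26 of the 28 such assays of the panel (6.90% of 377 assays in pool A and 0.536% of 373 in pool B). Reading in 2 BTBR and no C57BL/6J samples was more even, at 8.22% of pool A and 6.17% of pool B. The 2 such assays here, hsa-miR-149 and hsa-miR-340, were in pool B. The opposite pattern, at least 2 C57BL/6J and no BTBR samples, held for 0.796% of pool A and 2.14% of pool B. Pool A was also read more, with 40.3% of its assays read in all 6 samples against 22.8% in pool B. Most of the 28 were not late. Of panel assays read in all BTBR samples, 3 of 19 with a mean from 10 to below 15 cycles had no C57BL/6J reading, among them hsa-miR-328 and hsa-miR-342-3p. From 15 to below 20 cycles it was 15 of 82, among them hsa-miR-335. From 20 to below 25 cycles it was 8 of 123, among them hsa-miR-340#, and from 25 to below 30 cycles 2 of 69. All control spots carry the pool B letter, so the unread ones could lie in no other pool. Whether the unread control spots and the one-strain readings are related was not tested.

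Arms of a hairpin come from the same precursor, so the gap between their thresholds within a sample was compared between strains. A gap in cycles depends on each assay's efficiency and does not give the ratio of the arms. The 9 pairs of assays of the same hairpin included 2 with both assays read in all 6 samples, those of miR-151 and miR-186. HSA-MIR-151-5P was later than mmu-miR-151 by 5.968, 4.363 and 4.721 cycles in C57BL/6J and by 4.322, 4.515 and 5.006 cycles in BTBR. The means were 5.02 ± 0.843 and 4.61 ± 0.353 (SD, n = 3 each), the strains overlapped, and the difference of -0.40 cycles had a two-sided exact permutation p of 0.6 (0.6 after Benjamini-Hochberg adjustment over 2 pairs). The smallest p of 3 against 3 samples is 0.1. Without C57BL/6J replicate 1 the difference was 0.072.

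For miR-186, an abundant miRNA from the splicing factor gene Zranb2, the # arm was later than hsa-miR-186 by 16.194, 9.723 and 11.946 cycles in C57BL/6J and by 12.757, 8.834 and 10.586 in BTBR. The mean gaps, 12.6 ± 3.29 and 10.7 ± 1.97 cycles (SD, n = 3 each), differed by -1.90 with overlapping strains (two-sided exact permutation p = 0.5, adjusted 0.6). The difference was -0.11 without C57BL/6J replicate 1, which had the widest gap, and -0.95 without BTBR replicate 2. In both pairs the arms lie in different pools, and over the assays read in all 6 samples the mean gap of pool B to pool A was 2.40 cycles in C57BL/6J and 2.63 in BTBR. On the authors' normalized values the differences between strains had the other sign, 0.18 for miR-151 and 0.25 for miR-186.

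For miR-335 and miR-340 an arm was read in all 6 samples and the other in BTBR only, so their gaps could not be compared between strains. The assay hsa-miR-335# read 19.945, 19.836 and 19.819 cycles in C57BL/6J and 20.578, 19.785 and 19.858 in BTBR. So the arm marked as minor was read at 19.8 to 20.6 cycles in all 6 mice, with overlapping strains, while the other arm's assay, in the same pool, was undetermined in C57BL/6J. Where both were read, in BTBR, hsa-miR-335# was the later by 3.044, 3.266 and 1.131 cycles.

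The assay mmu-miR-340-5p was read in all 6 samples, at 29.387, 25.264 and 24.351 cycles in C57BL/6J and 22.825, 21.554 and 24.147 in BTBR. It was the only 1 of the 9 assays read throughout whose raw values did not overlap between strains, BTBR being earlier, where the panel had 14.3% of 237 assays in that direction and 18.1% in the other. With each sample's mean threshold taken off (the global mean scale) it was again the only 1, where the panel had 11.8% earlier and 23.2% later in BTBR. The nearest values, 24.351 and 24.147 cycles, were 1 from each strain's replicate 3. Its other arm, hsa-miR-340#, differed from it by -3.84, -1.87 and -0.68 cycles in BTBR, being earlier in each, and was unread in C57BL/6J, so all assays of this hairpin were read earlier, or only, in BTBR. For miR-342 the arms could be set side by side in BTBR replicate 2 alone, where the 5p assay was 4.594 cycles later than the 3p assay. For miR-330 this was again BTBR replicate 2, where hsa-miR-330-5p was 7.668 cycles later than mmu-miR-330, and for miR-488 it was C57BL/6J replicate 1, with mmu-miR-488# later by 1.578 cycles.

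Of the 9 assays read throughout, 4 were earlier and 5 later in BTBR by raw mean, and over the panel 114 of 237 were earlier. The assay mmu-miR-151 read 19.38, 19.499 and 19.73 cycles in C57BL/6J and 20.335, 20.316 and 19.632 in BTBR, where replicate 3 lay among the controls. HSA-MIR-151-5P read 25.348, 23.862 and 24.451 cycles in C57BL/6J and 24.657, 24.831 and 24.638 in BTBR, inside the control range. Both arms come from Ptk2, and miR-151 is known to act on cell migration together with that host.

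The assay mmu-miR-326, a miRNA of the Arrb1 locus known for neural and immune targets, read 21.397, 21.83 and 21.249 cycles in C57BL/6J. In BTBR it read 22.731, 20.576 and 23.038, so 2 BTBR samples were later and 1 earlier than every control. The assay mmu-miR-488 read 25.807, 25.005 and 24.729 cycles in C57BL/6J and 24.992, 24.361 and 24.328 in BTBR, slightly earlier on average with overlap. The assay hsa-miR-186 ranged from 12.884 to 16.969 cycles in C57BL/6J and from 14.571 to 16.981 in BTBR, the widest spread in controls after miR-340-5p. Its # arm read 29.078, 26.692 and 26.945 cycles in C57BL/6J and 27.328, 25.815 and 27.332 in BTBR.

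The authors' normalized table holds 13 of the 18 assays, and the 5 without a row were read in at most 2 samples. Between the tables the strains moved apart. Over 189 assays with 6 normalized values, the median step from raw to normalized was -0.38 to -0.66 cycles in the C57BL/6J samples and 0.44 to 1.37 in the BTBR samples. For hsa-miR-335# the normalized thresholds were 19.8, 19.4 and 19.4 cycles in C57BL/6J and 20.7, 20.9 and 20.6 in BTBR, so the groups overlapped in the raw table and not in the normalized one. Raw means differed by 0.21 cycles (BTBR minus C57BL/6J) and normalized means by 1.23.

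**Figure D3:**
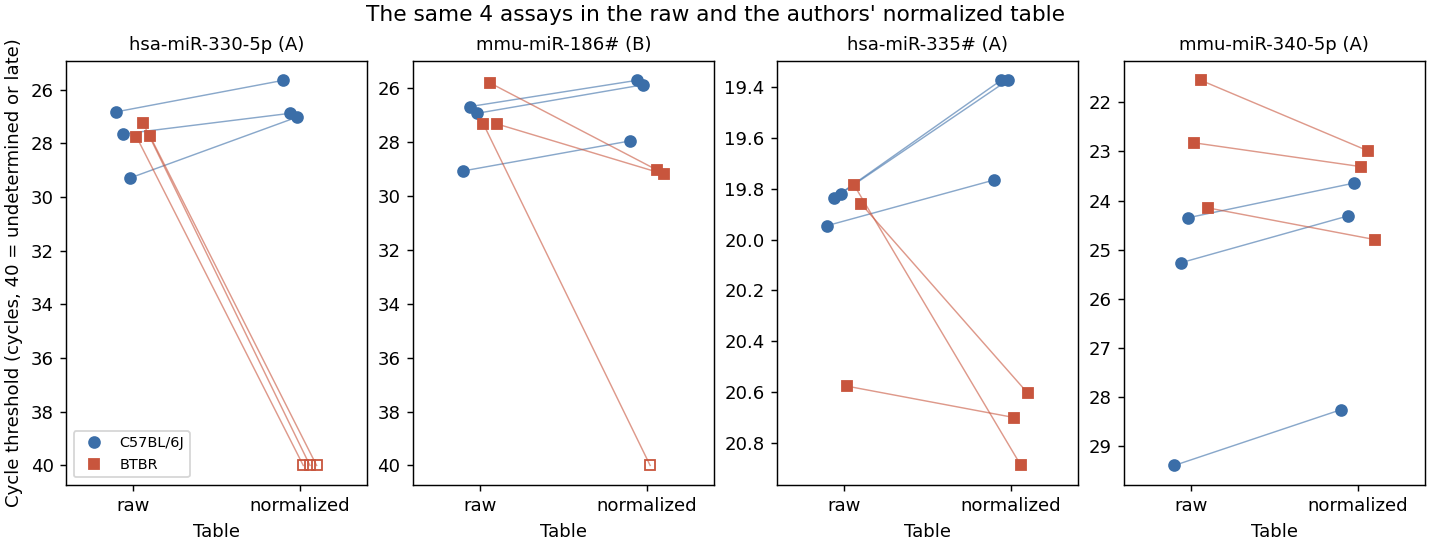
Cycle thresholds (y axis, cycles, earlier at the top, scale set for each panel) of 4 assays in the raw and the authors' normalized table (x axis), with lines joining the values of a sample, blue circles for C57BL/6J, red squares for BTBR and open symbols at 40. For hsa-miR-330-5p the BTBR samples read 27.248 to 27.746 cycles raw, between control values, and stand at 40 after normalization.

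The largest such step was that of hsa-miR-330-5p, from an Eml2 intron. Its raw thresholds were 26.825, 27.651 and 29.295 cycles in C57BL/6J and 27.746, 27.248 and 27.708 in BTBR, with all BTBR values inside the control range and a difference of means of -0.36 cycles. In the normalized table the C57BL/6J values are 25.7, 26.9 and 27.0, and all BTBR values are 40. In C57BL/6J replicates 1 to 3 it ranked 232, 256 and 258 among 305, 301 and 289 assays read. In BTBR it ranked 313, 359.5 and 297 among 358, 404 and 347, so the higher ranks go with more assays read. Rebuilt from the raw table without the late limit of 29.19 cycles, an alternative added after seeing the data, the BTBR values are 31.4, 34.4 and 31.0 cycles. In that rebuild undetermined readings still entered the quantiles as 40. With 40 entered as a number, the authors' deposited table lists hsa-miR-330-5p as lower in BTBR, adjusted p = 0.0128. Over the panel 6 assays read in all 6 samples stand at 40 in every BTBR and no C57BL/6J sample of the normalized table. The assay mmu-miR-186# took the same course in 1 sample: its BTBR values became 40, 29.0 and 29.2 cycles against 28.0, 25.7 and 25.9 in C57BL/6J, although the raw BTBR mean was earlier (26.8 against 27.6 cycles).

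Of the 13 assays, 6 had an adjusted p under 0.05 in the authors' deposited table. Those listed as higher in BTBR were hsa-miR-328 (adjusted p = 0.00509), hsa-miR-335 (0.0121), hsa-miR-342-3p (0.0211) and hsa-miR-340# (0.0389), per the authors' deposited table, each against a C57BL/6J mean of 40. Those listed as lower were hsa-miR-330-5p, against a BTBR mean of 40, and hsa-miR-335# (adjusted p = 0.0212 in the authors' deposited table). Over that table's 306 assays, 8.17% were listed as higher (25, all with a C57BL/6J mean of 40) and 7.52% as lower. So 5 of the 6 calls set a strain with readings against one at 40.

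With 40 treated as missing, 8 of the 18 assays had at least 2 normalized values in each strain and entered a limma fit of 231 panel assays. The log2 change was below 0 for 7 of the 8 assays and 190 of the 231. At an adjusted p under 0.05, 4 of the 8 were lower in BTBR and 0 higher. These 4 were mmu-miR-326, mmu-miR-151, HSA-MIR-151-5P and hsa-miR-335#. At an unadjusted p under 0.05 there were 6 of the 8, beside 113 of the 231. The background at an adjusted p under 0.05 was 35.5% of the panel lower and 1.30% higher, so 4 of 8 called lower stand beside 82 of 231. The median log2 change was -1.52 over the 8 assays and -1.13 over the 231. The limma count lower in BTBR was 0 of 8 without C57BL/6J replicate 2, C57BL/6J replicate 3 or BTBR replicate 1. The panel then had 2 of 212, 0 of 221 and 0 of 212 lower. At an unadjusted p under 0.05 those fits had 5, 4 and 5 of the 8, beside 89, 99 and 89 of the panel. Without C57BL/6J replicate 1 the count was 3 of 8, with mmu-miR-186# among them (panel 64 of 220). Without BTBR replicate 2 it was 1 of 7 (panel 8 of 213), and without BTBR replicate 3 it was 5 of 7 (panel 88 of 212).

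The assay mmu-miR-326 had normalized thresholds of 20.9, 21.1 and 20.5 cycles in C57BL/6J and 23.17, 21.96 and 23.44 in BTBR, without overlap. The level was lower by 4.08-fold in BTBR, a log2 change of -2.03 with standard error 0.47 (adjusted p = 0.0301 in limma). The assay mmu-miR-151 was at 19.0, 18.7 and 19.2 cycles and at 20.4, 21.6 and 20.2, again without overlap, a level lower by 3.35-fold and a log2 change of -1.74 with standard error 0.46 (adjusted p = 0.0339 in limma). HSA-MIR-151-5P moved alike, with 24.4, 23.3 and 23.8 cycles against 25.2, 26.9 and 25.2, a log2 change of -1.92 with standard error 0.58 (adjusted p = 0.0477 in limma). That call was lost with a trended prior (limma adjusted p = 0.052), a looser filter (0.0578), late readings kept (0.0611) and 40 kept as a value (0.0741). For hsa-miR-335# the log2 change was -1.23, standard error 0.28 (adjusted p = 0.0301 in limma). With the replicate block the calls of mmu-miR-326, mmu-miR-151 and hsa-miR-335# were lost too (limma adjusted p = 0.0506, 0.0638 and 0.0503). When a replicate was left out, mmu-miR-151 passed only without BTBR replicate 3 (limma adjusted p = 0.0255). Without C57BL/6J replicate 2, mmu-miR-326 and hsa-miR-335# did not pass either (limma adjusted p = 0.0759 and 0.115). Groups did not overlap for 5 of the 7 assays with 6 normalized values, all later in BTBR, where the panel had 57.7% later and 1.59% earlier.

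The other 4 did not pass. The assay mmu-miR-488, whose host Astn1 is neuronal, had a log2 change of -1.30 (standard error 0.43, limma adjusted p = 0.059), also without overlap. It passed when only assays with values in all 6 samples were fitted (limma adjusted p = 0.0475) and without BTBR replicate 3 (0.0255). The assay mmu-miR-186#, with 2 BTBR values, had -2.59 (0.79, limma adjusted p = 0.0577), and -3.32 without C57BL/6J replicate 1 (limma adjusted p = 0.0385). The log2 change of hsa-miR-186 was -1.24 (1.23, limma adjusted p = 0.446) and ran from -2.34 without BTBR replicate 1 to -0.45 without C57BL/6J replicate 1, with -2.11 without C57BL/6J replicate 2 and -0.60 without BTBR replicate 2. The assay mmu-miR-340-5p alone was on the higher side, with a log2 change of 1.71, standard error 1.30 (adjusted p = 0.324 in limma). Without C57BL/6J replicate 1, the latest reading, it was 0.28, and without C57BL/6J replicate 3 it was 2.59. Its normalized thresholds were 28.3, 24.3 and 23.6 cycles in C57BL/6J and 23.3, 23.0 and 24.8 in BTBR, so the separation seen in the raw table was gone.

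**Figure D4:**
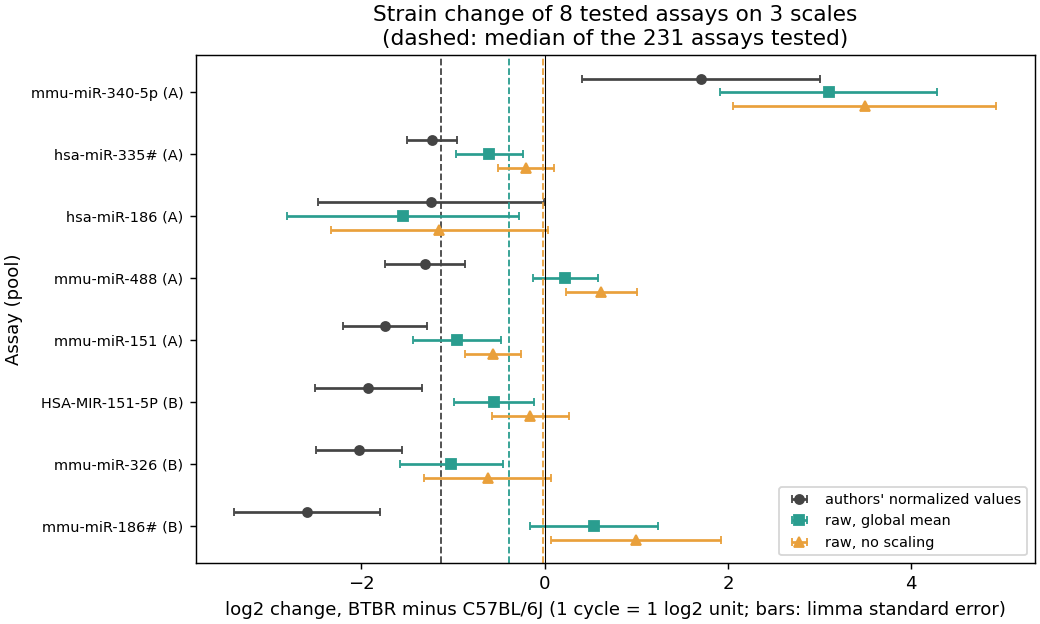
Log2 change (x axis, BTBR minus C57BL/6J) of the 8 tested assays (y axis) on the authors' normalized values (circles), raw thresholds centred on the global mean (squares) and raw thresholds without scaling (triangles), with bars for the limma standard error and dashed lines for the median of the 231 assays on each scale. The median was -1.13, -0.39 and -0.01 respectively, and mmu-miR-488 and mmu-miR-186# lay on opposite sides of 0 depending on the scale.

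On raw thresholds of the same cells, minus the sample's average of the 237 assays read throughout (the global mean), 0 of the 8 passed in limma. The panel had 0.00% lower and 0.00% higher calls on that scale, with 74 assays and, of the 8, only mmu-miR-340-5p at an unadjusted p under 0.05. The log2 changes were -1.02 for mmu-miR-326, -0.95 for mmu-miR-151, -0.55 for HSA-MIR-151-5P and -0.60 for hsa-miR-335#, each smaller than on the authors' scale and of the same sign. The changes of mmu-miR-488 (0.23, standard error 0.35) and mmu-miR-186# (0.54, 0.70) had the opposite sign there. The change of mmu-miR-340-5p was 3.10 (standard error 1.19, limma adjusted p = 0.138). The median change of all 231 assays was -0.39 on this scale. Relative to it, mmu-miR-326 was at -0.63, mmu-miR-151 at -0.56, HSA-MIR-151-5P at -0.16 and hsa-miR-335# at -0.21.

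The assays that share the seed CUCUGGG, mmu-miR-326 and hsa-miR-330-5p, differed in what the tables show. Both had overlapping raw values, with mean differences of 0.62 and -0.36 cycles (BTBR minus C57BL/6J). In the normalized table both were later in BTBR or at 40. With the rebuilt late values their log2 changes were -2.03 and -5.72 (standard errors 0.49 and 1.02, limma adjusted p = 0.0401 and 0.0299). On these values the median of 270 assays was -1.37 and the panel had 31.1% lower and 0.741% higher calls. The quantiles behind them had 40 entered for undetermined readings, so the change and p of hsa-miR-330-5p depend on that entry.

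A comparison list of other miRNAs, named as intronic in brain-expressed hosts without a check of the hosts, included miR-107, miR-128, miR-139 and miR-338. It had 37 assays, of which 22 were tested on the authors' scale. At an adjusted p under 0.05 in limma, 6 were lower and 1 was higher, beside 35.5% lower and 1.30% higher over the panel. The median log2 change was -0.65, against -1.13 over the panel. On the global mean scale 0 passed. The fallers included hsa-miR-107 (-2.01), from a pantothenate kinase gene, hsa-miR-338-3p (-3.08), from the kinase gene Aatk, and hsa-miR-152 (-1.58), and mmu-miR-140 (2.71), from Wwp2, was the 1 that rose. The list was not tested against the 18 assays.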

How the data were processed

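Both tables of cycle thresholds were used as deposited, raw and quantile-normalized by the authors (per the file headers). The authors' deposited fold table gives a ratio of BTBR to C57BL/6J, a test score, the log2 difference of means, a p-value and an adjusted p-value, per the file headers; the adjustment method and the instrument software were not given in the sources used here. The steps rebuilt from both tables were raw values under 10 set to 40, assays read in at least 3 samples kept (340), quantiles with 40 as a value, values above 29.19 set to 40, and the same filter again (306 assays, largest difference 3.33e-09 cycles). 40 therefore takes part in the ranks.

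For the strain fit, normalized thresholds times -1 were taken as log2 values, 40 as missing, with at least 2 values per strain (limma 3.58.1 in R 4.3.3, lmFit and eBayes, Benjamini-Hochberg over 231 assays, threshold 0.05). The fit was tested on simulated data with changes in random directions and no shift of the whole panel. That test cannot show whether the strain calls hold where the whole panel shifts. Arm gaps used raw thresholds and exact permutation. RNA was column-purified, reverse transcribed and pre-amplified before the PCR, per the labels' protocols. Each mouse gave 1 sample and each assay 1 PCR. A threshold has no counting depth, so the number of mice limits precision. The members and lists were chosen with earlier results of these data known. Every assay of the 10 miRNAs is named by rule; assays of the comparison list were named after their values were seen. Alternatives covered scaling, the treatment of 40, filters, the replicate block and leaving out each sample.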

Additional observations from a re-analysis of the deposited data

How the results depend on the processing

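On the authors' values 82 panel assays were lower and 3 higher in BTBR, and 4 and 0 of the 8 tested assays of these miRNAs. Global mean scaling, endogenous control scaling and no scaling of raw thresholds each gave 0 lower and 0 higher over the panel and 0 lower here; centring on sample medians gave 1 lower, 1 higher and 0 here. With 40 kept as a value 26 were higher over the panel and 4 here (hsa-miR-328, hsa-miR-335, hsa-miR-340# and hsa-miR-342-3p can enter only then), and with values in all 6 samples 1 was higher over the panel. Leaving out a replicate gave 0 to 88 lower and 0 to 13 higher over the panel, and 0 to 5 lower here. The replicate block gave 48 lower and 1 higher over the panel and 1 lower here, mmu-miR-186#. Same-numbered samples deviated together with r = 0.076, 0.421 and -0.067. These values cannot show whether same-numbered mice were paired, and the labels give replicate numbers only. Reversed values were those of mmu-miR-488 (0.23 on the global mean, 0.22 on controls, 0.62 unscaled), mmu-miR-186# (0.54, 0.48 and 1.00) and the arm gaps (miR-151 0.18 and miR-186 0.25 on normalized values; miR-151 0.072 without C57BL/6J replicate 1). Leaving out a replicate moved the arm gap of HSA-MIR-151-5P to mmu-miR-151 over -0.73 to 0.072 and that of miR-186 over -3.34 to -0.11. With the replicate block the arm gaps were -0.40 and -1.90. Counting readings in the normalized table, 1 assay (hsa-miR-330-5p) was read in at least 2 C57BL/6J and no BTBR samples, against 0 in the raw table. A trended prior and the filter of 1 value in each strain each gave 3 lower here, HSA-MIR-151-5P being lost. Values in all 6 samples gave 5 of 7 lower here (panel 81 of 189), and late readings kept gave 5 of 9 (panel 84 of 270). The cause of these changes was not tested.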
